A study of Mus musculus with 6 samples.

Results

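The genes described here encode the protein components of the cytosolic ribosome. They were chosen by symbol: of the probe sets that the platform annotates to only 1 gene, those for Rpl, Rplp, Rps and Rpsa symbols were taken, and, where a gene had several, its brightest by mean log2 value was kept. This gave 70 of the 17097 genes measured, 45 of the large subunit (Rpl and Rplp symbols) and 25 of the small subunit (Rps symbols), from 133 probe sets. Rpl5 and Rps3 were found only on probe sets annotated to several genes and are not analysed here.

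Liver remaining after partial hepatectomy was profiled on 6 one-colour Affymetrix arrays, 12 h after 70% of the organ had been resected. The 3 control arrays are C57Bl/6 wildtype mice, and the other 3 are mice of the same strain labelled DeltaKlf6, which lack the zinc-finger transcription factor Klf6 in hepatocytes only; each array is 1 animal of 6 per group in the wider study. All 6 mice had the operation, so no unoperated liver serves as a baseline, and the sources used here do not give the driver of the hepatocyte deletion, the age or the sex. Values are log2 expression after RMA, a method that corrects background, equalises the distribution of probe values between arrays and summarises the probes of a set.

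A ribosome is built from a small subunit, which reads the mRNA, and a large subunit, which joins the amino acids. Their proteins are made in near equal amounts and assembled on ribosomal RNA in the nucleolus. Most of their mRNAs begin with a C and a run of pyrimidines, the 5' terminal oligopyrimidine (TOP) motif, through which the mTOR kinase and the RNA-binding protein LARP1 control their translation. In liver, growth after resection depends on new ribosomes. Rps6, a small subunit protein, is the classic case in liver: hepatocytes that cannot make it fail to divide after resection.

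The sequences below show the TOP start, the feature of these genes that is independent of the array values. RefSeq promoter windows (build GRCm38.p6, 250 bases before and 50 after an annotated start) were matched by gene number. Windows on the chromosome that carries Rpl17 and Rps14 were then left out for the ribosomal protein genes, but were kept among all windows. This left 67 windows for 56 of the 70 genes, with Rpl17 and Rps14 among the 14 without a window. The percentages here and below therefore compare sets that do not cover the same chromosomes. A C followed by at least 4 pyrimidines stood exactly at the annotated start in 11 of these 67 windows (16.4%), against 2.51% of all 32851 windows of the same length. A C with at least 7 pyrimidines lay within 30 bases of the start in 46.3% of the windows, against 18.2% of all windows. The 5 longest runs at a start are those of Rpl15 at chr14:18270972-18271001 (minus strand), Rpl35 at chr2:39005117-39005146 (minus strand), Rps10 at chr17:27635230-27635259 (minus strand), Rps6 at chr4:86857353-86857382 (minus strand) and Rps18 at chr17:33955651-33955680 (minus strand). Each line gives 15 bases before and 15 after the start, 5' to 3' on the gene's strand, with the pyrimidine run in capitals.
Rpl15: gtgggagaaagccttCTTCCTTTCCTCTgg
Rpl35: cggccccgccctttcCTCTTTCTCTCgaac
Rps10: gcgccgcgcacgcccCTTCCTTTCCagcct
Rps6: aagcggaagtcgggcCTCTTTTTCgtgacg
Rps18: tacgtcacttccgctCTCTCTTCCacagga

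Known promoter letters were then counted in the same windows, on both strands. GGAAGT, the core bound by ETS factors such as GABP, was in 43.3% of the ribosomal protein windows and 23.8% of all windows. GGGCGG, the GC box bound by Sp and Klf factors, was in 59.7% against 35.7%. GCCATNTT, the core of the YY1 motif, was in 23.9% against 6.05%, the E-box CACGTG in 11.9% against 7.15%, and TATAAA in 10.4% against 13.6%. The median log2 difference between DeltaKlf6 and wildtype was 0.06 for the 34 genes with a GC box and 0.13 for the 22 without, and it was 0.13 for the 27 genes with GGAAGT and 0.09 for the 29 without. It was 0.0003 for the 12 genes with the YY1 core and 0.09 for the 44 without, -0.03 for the 7 with the TATA letters and 0.09 for the 49 without, and 0.12 for the 6 with the E-box and 0.09 for the 50 without. The 11 genes with the TOP run at the start had 0.09, as did the 45 without. These medians are descriptions of overlapping groups of genes. Of the genes with windows, Rps6 had the most GGAAGT matches in the 120 bases before its start and Rpl31 the most GGGCGG matches; both stretches are shown as the densest examples, with the ETS core and the GC box, on either strand, in capitals. Rps6 is at chr4:86857368-86857487 (minus strand) and Rpl31 at chr1:39367731-39367850 (plus strand).
Rps6: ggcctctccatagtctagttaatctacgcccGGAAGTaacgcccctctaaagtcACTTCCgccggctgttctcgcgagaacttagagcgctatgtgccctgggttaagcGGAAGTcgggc
Rpl31: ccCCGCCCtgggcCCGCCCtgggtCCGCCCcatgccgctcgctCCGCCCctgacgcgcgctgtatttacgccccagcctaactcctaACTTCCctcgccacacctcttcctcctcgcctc

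Several facts about the 6 arrays bear on every value below. Klf6 itself did not read lower in every library labelled DeltaKlf6. Its 3 probe sets read 7.03, 5.88 and 5.81 in the library labelled DeltaKlf6 1, above the wildtype ranges of 4.43 to 5.20, 3.73 to 4.44 and 3.41 to 4.03. In the library labelled DeltaKlf6 2 they read 4.61 and 4.12, inside those ranges, and 2.82, below. In DeltaKlf6 3 they read 3.15, 3.74 and 2.83, with the first and last below wildtype and the middle one at its lower end. So each direction given here is between libraries as labelled. The deletion is in hepatocytes only and bulk liver was profiled, so Klf6 of other cells can be part of these values. Its share was not tested. The 5 measured hepatocyte markers had a mean of 12.83 to 13.04 on every array, with Alb between 12.52 and 13.33. Lists of other cells had means over their measured genes, across the 6 arrays, of 2.91 to 3.66 (cholangiocytes), 3.86 to 4.20 (lymphocytes), 4.96 to 5.85 (neutrophils), 5.14 to 6.26 (stellate cells), 6.52 to 7.34 (Kupffer cells) and 7.47 to 7.74 (erythroid cells), and of at least 6.28 for endothelium, beside array medians of 3.30 to 3.45. Of 4 pancreatic acinar markers Prss2, Cpa1 and Cel lay between 2.27 and 4.17 and Cela1 between 7.17 and 8.05. The stellate and endothelial means were lowest in the library labelled DeltaKlf6 3 (deviations -0.62 and -0.58), the Kupffer mean highest in DeltaKlf6 2 (0.65), and the part of cell makeup in the values below was not tested. The 5' control probe set for Gapdh read 8.28, 8.43 and 6.35 in the 3 DeltaKlf6 libraries, in order, and 6.83 to 7.36 in wildtype. The 3' minus 5' gap, which widens as RNA or labelled cRNA becomes shorter, for Gapdh was 3.47, 3.45 and 4.83 in those libraries, beside 4.06 to 4.43 in wildtype. For actin the gap was at most 4.22 in the first 2 of these and 5.05 in DeltaKlf6 3, beside 4.86 to 5.39 in wildtype.

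No ribosomal protein gene differed between the groups by the test, but the 3 DeltaKlf6 livers did not behave alike. Most of the 70 genes read above wildtype in the libraries labelled DeltaKlf6 1 and 2 and below it in DeltaKlf6 3. The mean deviation from the wildtype mean of each gene was 0.21 in the library labelled DeltaKlf6 1, 0.22 in DeltaKlf6 2 and -0.15 in DeltaKlf6 3, on the log2 scale. Among the wildtype arrays it was -0.10, 0.13 and -0.03. Wildtype 2 is thus closer to the 2 high DeltaKlf6 libraries than to wildtype 1, and the groups overlap.

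**Figure D1:**
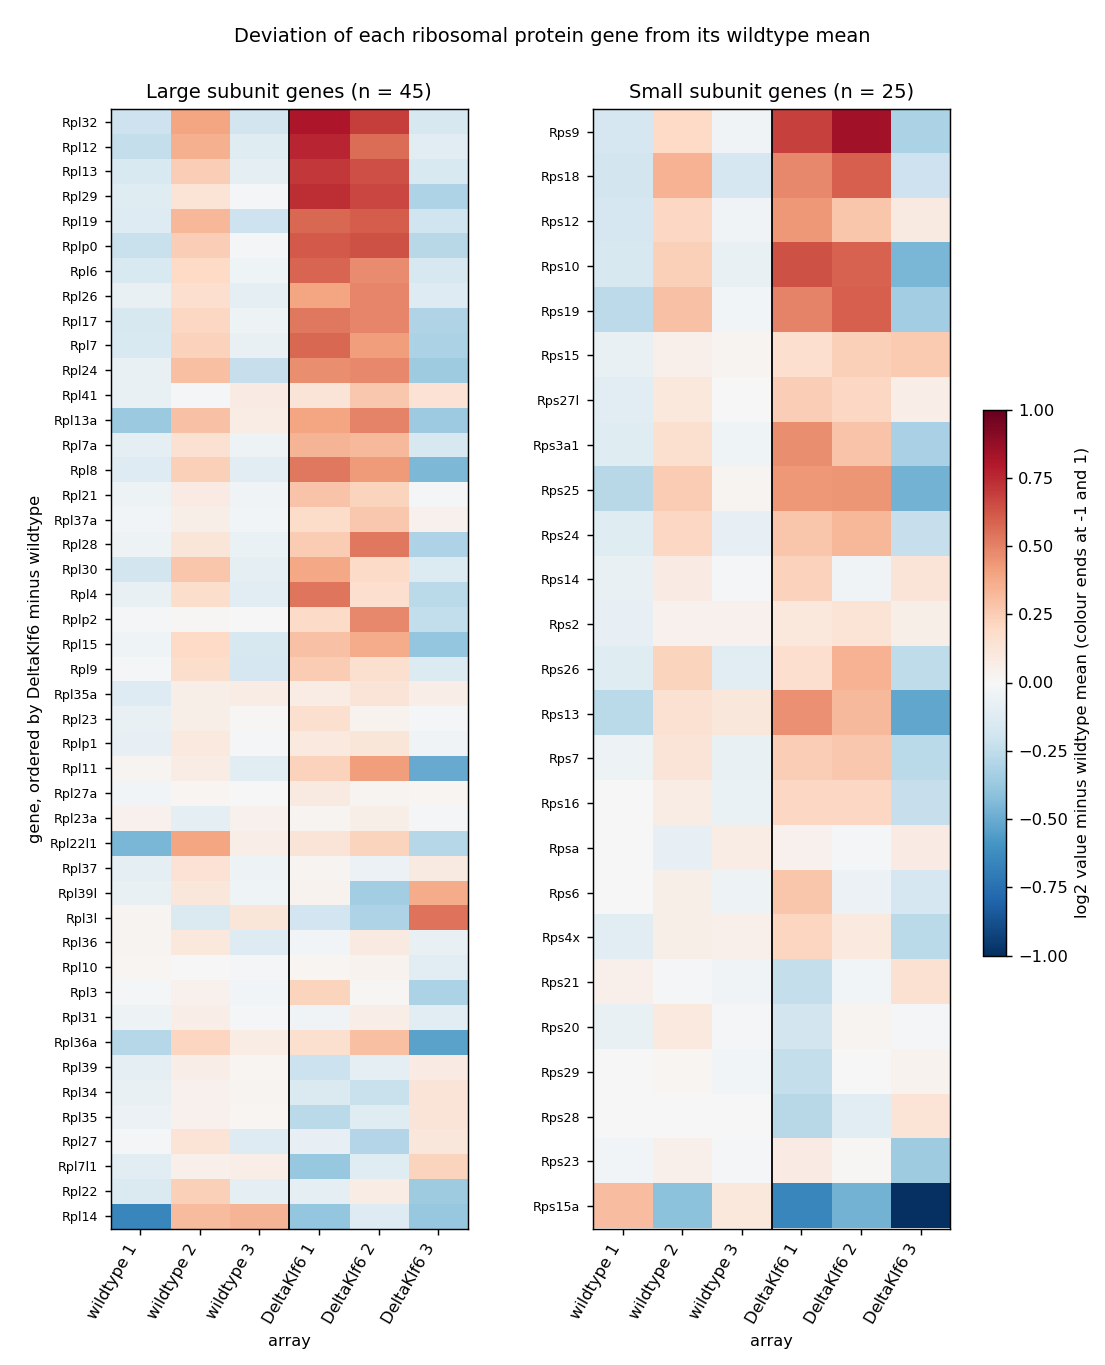
Log2 value of each ribosomal protein gene minus its wildtype mean (colour) on each of the 6 arrays (columns), for 45 large and 25 small subunit genes (rows, ordered by the difference DeltaKlf6 minus wildtype). Red fills most of DeltaKlf6 1 and 2 and blue most of DeltaKlf6 3; Rps15a in DeltaKlf6 3, at -1.28, lies beyond the end of the colour scale.

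Gene by gene, 55 of the 70 lay above their wildtype mean in the library labelled DeltaKlf6 1 and 55 in DeltaKlf6 2, but only 21 in DeltaKlf6 3. Over all genes the shares were 47.8%, 48.5% and 44.8%. The combination of higher in both and lower in DeltaKlf6 3 held for 42 of the 70, against 15.5% of all genes. The library labelled DeltaKlf6 1 exceeded every wildtype array for 47 genes (background 29.0% of all genes), DeltaKlf6 2 for 44 (28.0%) and DeltaKlf6 3 for 14 (27.2%). Values lay under every wildtype array for 10 genes in DeltaKlf6 1 (30.9%), 10 in DeltaKlf6 2 (27.6%) and 34 in DeltaKlf6 3 (35.1%). Within wildtype the genes were ordered as well: wildtype 2 was the highest of the 3 wildtype arrays for 59 of the 70, against 35.8% of all genes. The genes of 1 array share that array's RNA and scan, so these counts describe the arrays and carry no p.

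The group means differed little. Of the 70 genes 52 were higher and 18 lower in DeltaKlf6 (48.4% and 51.6% of all 17097 genes), with a median log2 difference of 0.09 against -0.01 over all genes. By limma with Benjamini-Hochberg adjustment over all genes, 0 of the 70 passed an adjusted p of 0.05, as did 0.0% of all genes; the lowest adjusted p was 0.992. Without adjustment, 0 higher genes (1.21% of all genes) and 1 lower gene, Rps15a (2.48%), had a p under 0.05. Groups did not overlap for 3 higher genes, Rpl41, Rps15 and Rps2 (3.41% of all genes), and for 1 lower gene, Rps15a (5.91%). The 95% intervals of the differences extended 0.44 to 0.76 either side of the estimate, with a median of 0.53. They are not adjusted for the 17097 genes tested, so they do not give the size of change that would pass adjustment. The interval of Rps15a, -1.49 to -0.12, excluded 0, yet its adjusted p was 0.992 by limma. The median gene SD was 0.13 in wildtype and 0.27 in DeltaKlf6, and the SD was larger in DeltaKlf6 for 57 of the 70 genes, against 68.1% of all genes. A bulk liver value cannot tell fewer cells of a type from less RNA per cell.

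The size of the group difference varied with the array left out, and its median moved most with the library labelled DeltaKlf6 3. Without it the median of the 70 was 0.22, 55 genes were higher (48.3% of all genes), the groups did not overlap for 39 higher genes (12.6% of all genes) and 7 lower genes (12.8%), and 10 higher (5.35%) and 0 lower genes (3.69%) had an unadjusted p under 0.05. Again 0 passed adjustment (0.0% of all genes). Leaving out instead DeltaKlf6 1, whose Klf6 signal was high, gave a median of 0.03 with 47 genes higher (47.7%). Then 0 higher (1.51%) and 1 lower gene (2.58%) had an unadjusted p under 0.05, the groups did not overlap for 3 higher genes (7.31%) and 2 lower genes (10.8%), and 0 passed adjustment (0.0%). With DeltaKlf6 2 or any 1 wildtype array left out, the median was 0.05 to 0.16.

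Large and small subunit genes deviated together on every array. The mean deviation was 0.22 for large and 0.19 for small subunit genes in the library labelled DeltaKlf6 1, 0.22 and 0.20 in DeltaKlf6 2, and -0.13 and -0.19 in DeltaKlf6 3. In wildtype 1, 2 and 3 it was -0.11, 0.15 and -0.03 for the large subunit and -0.08, 0.10 and -0.02 for the small. Each array moved both subunits to the same side of the wildtype mean. The difference between the subunits, large minus small, came to 0.03, 0.02 and 0.06 in the DeltaKlf6 libraries, in order, and -0.03, 0.05 and -0.02 in wildtype. As group values this is 0.04 ± 0.02 (SD, n = 3) against 0.00 ± 0.04 (n = 3), a gap smaller than the wildtype SD, and wildtype 2 lay above DeltaKlf6 1 and 2. By group mean 33 of 45 large and 19 of 25 small subunit genes were higher, with medians of 0.09 for both.

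**Figure D2:**
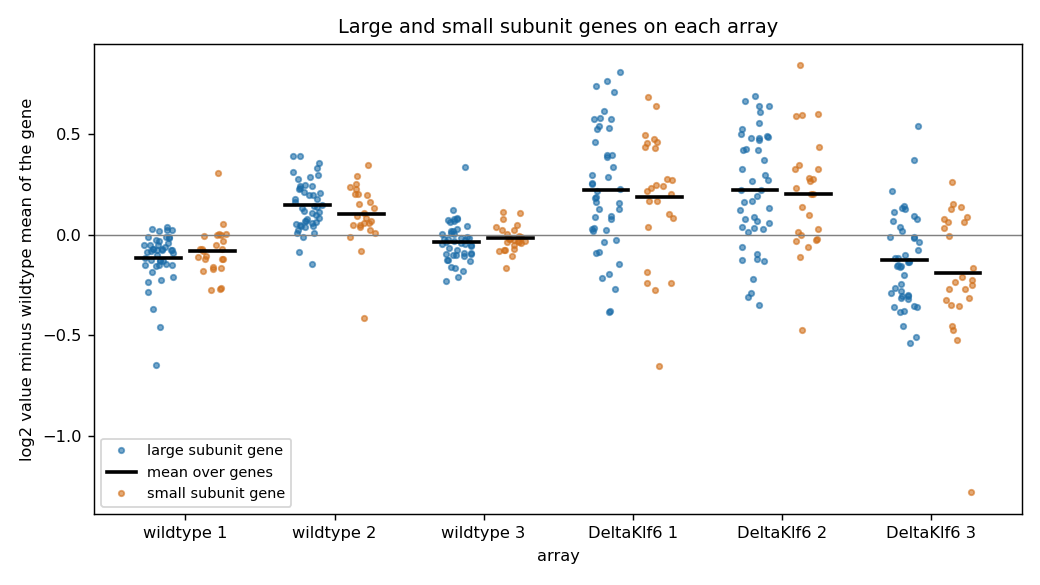
Each point is 1 gene on 1 array, plotted as its log2 value minus its wildtype mean, with large subunit genes in blue, small subunit genes in orange and the mean over genes as a black bar. The bars of both subunits lie near 0.2 in DeltaKlf6 1 and 2 and below 0 in DeltaKlf6 3.

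The gap was smaller without dim probe sets. With the 4 genes of mean under 7 left out (Rpl14, Rpl39l, Rpl3l and Rps15a), large minus small was 0.03, 0.02 and -0.01 in DeltaKlf6 1, 2 and 3 as labelled and -0.01, 0.03 and -0.02 in wildtype. The group values were then 0.01 ± 0.02 (SD, n = 3) and 0.00 ± 0.03 (n = 3).

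Among the 6 higher genes of smallest p, 5 repeated this split between livers. Rpl13, a large subunit protein, read 10.76, 11.16 and 10.82 in wildtype 1, 2 and 3 and 11.62, 11.55 and 10.76 in the libraries labelled DeltaKlf6 1, 2 and 3 (log2 difference 0.40, SE 0.29). Its last value equals the lowest wildtype one to 2 decimals, and its other probe set differed by -0.53, in the opposite direction. Rpl32 read 10.44, 11.04 and 10.47 against 11.46, 11.34 and 10.49 (0.45, SE 0.32), the largest higher difference of the 70. Rpl12, a protein at the base of the ribosomal stalk, read 10.04, 10.64 and 10.15 against 11.04, 10.83 and 10.18 (0.41, SE 0.29). In these 3 genes DeltaKlf6 3 sat inside the wildtype range, while the other 2 DeltaKlf6 livers lay above it.

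Rps9, a small subunit protein that helps to keep decoding accurate, read 9.93, 10.29 and 10.06 in wildtype and 10.78, 10.94 and 9.78 in DeltaKlf6 (log2 difference 0.40, SE 0.33). Rpl29 read 10.19, 10.45 and 10.31 against 11.06, 10.98 and 10.01 (0.37, SE 0.31). For both, the library labelled DeltaKlf6 3 was the lowest of the 6 arrays. Rps12 read 10.80, 11.17 and 10.94 against 11.41, 11.25 and 11.06 (0.27, SE 0.22), so all 3 of its DeltaKlf6 values exceeded its wildtype mean, though the last lay under wildtype 2. Adjusted p was 0.992 for each of these 6 genes.

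The lower genes had mostly small differences or dim probe sets. Rps15a read 3.71, 2.99 and 3.51 in wildtype and 2.76, 2.93 and 2.13 in DeltaKlf6 (log2 difference -0.80, SE 0.30, unadjusted p = 0.0274 and adjusted p = 0.992 by limma). It had the only difference of at least 1.5-fold among the 70 genes, but its 1 probe set has a mean of 3.01, with 27.1% of genes below it, and all 3 DeltaKlf6 values lie under every array median; detection was not assessed. Rpl14 read 5.59, 6.55 and 6.58 against 5.85, 6.11 and 5.86 (-0.30, SE 0.30), with wildtype 1 the lowest of all. A probe set annotated to Rpl14 together with another gene was not used. Rpl22 read 10.39, 10.78 and 10.43 against 10.44, 10.61 and 10.18 (-0.12, SE 0.22), and the groups overlap.

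Rpl7l1, a relative of Rpl7 with a role in ribosome assembly, read 8.58, 8.74 and 8.76 in wildtype and 8.31, 8.57 and 8.91 in DeltaKlf6 (log2 difference -0.10, SE 0.23). Rpl35 read 12.25, 12.35 and 12.33 against 12.04, 12.19 and 12.44 (-0.09, SE 0.21). In both, the order of the DeltaKlf6 livers was the reverse of that in Rpl13, with DeltaKlf6 3 the highest of the 6. Rps23 read 11.84, 11.92 and 11.85 against 11.95, 11.88 and 11.51 (-0.09, SE 0.21). Adjusted p was 0.992 or higher for each lower gene.

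**Figure D3:**
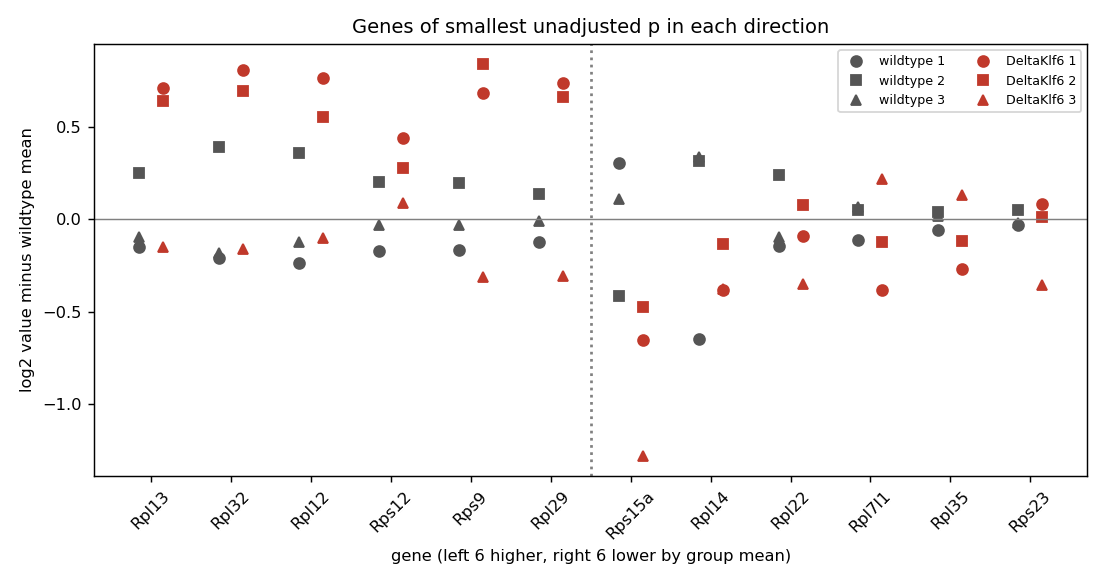
Log2 value minus wildtype mean for the 6 genes of smallest unadjusted p in each direction, with wildtype arrays in grey and DeltaKlf6 in red; the marker shape gives the array number. For Rpl13, Rpl32, Rpl12, Rps9 and Rpl29 the circles and squares of DeltaKlf6 lie above every wildtype point and the triangle does not.

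The 3 genes whose groups did not overlap on the higher side had small differences. Rps15 read 11.69, 11.81 and 11.78 in wildtype and 11.93, 11.99 and 12.02 in DeltaKlf6 (log2 difference 0.22, SE 0.19), and its other probe set was higher by 0.37. Rpl41, which encodes the smallest ribosomal protein, read 12.54, 12.61 and 12.70 against 12.74, 12.89 and 12.76 (0.18, SE 0.19). Of its 4 probe sets 2 were higher and 2 lower. The other higher one differed by only 0.0072, and the 2 lower ones, of mean 6.33 and 5.93, by -0.74 and -0.52. On the last of these every DeltaKlf6 value lay below every wildtype value. Rps2 read 12.18, 12.30 and 12.30 against 12.36, 12.40 and 12.32 (0.10, SE 0.19), and its 3 probe sets were all higher. In all, 8 genes lay above their wildtype mean in all 3 DeltaKlf6 libraries (Rpl27a, Rpl35a, Rpl37a, Rpl41, Rps12, Rps15, Rps2 and Rps27l), against 12.4% of all genes, and 2 lay below it in all 3 (Rpl14 and Rps15a), against 17.7%.

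The stalk proteins, which recruit the translation factors that hydrolyse GTP, also read lowest of the DeltaKlf6 livers in DeltaKlf6 3. Rplp0, the base of the stalk and a common reference gene for qPCR, read 11.34, 11.81 and 11.54 in wildtype and 12.18, 12.20 and 11.28 in DeltaKlf6 (log2 difference 0.33, SE 0.30). Rplp2 read 11.20, 11.23 and 11.22 against 11.41, 11.70 and 10.98 (0.14, SE 0.24), a spread of 0.01 (SD, n = 3) in wildtype and 0.36 (n = 3) in DeltaKlf6. Rplp1 read 12.62, 12.80 and 12.68 against 12.80, 12.83 and 12.67 (0.06, SE 0.19). A DeltaKlf6 liver was thus both the highest and the lowest of the 6 for Rplp0 and Rplp2. Rpsa, a small subunit protein also known as a laminin receptor, was nearly level at 12.61, 12.52 and 12.68 against 12.65, 12.58 and 12.68 (0.03, SE 0.19).

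Rpl11 and Rpl23 bind MDM2 when ribosome assembly fails and so link it to p53. Rpl11 read 11.20, 11.26 and 11.08 in wildtype and 11.41, 11.60 and 10.67 in DeltaKlf6 (log2 difference 0.05, SE 0.28), so its group means nearly coincide while its DeltaKlf6 SD is 0.49 (n = 3) against 0.09 (n = 3) in wildtype. Rpl23 read 12.37, 12.50 and 12.45 against 12.60, 12.48 and 12.43 (0.06, SE 0.19). Neither gene's group means were separated beyond their spread. Rps6, the substrate of the S6 kinases, read 12.26, 12.32 and 12.21 against 12.53, 12.20 and 12.09 (0.02, SE 0.21), with only the library labelled DeltaKlf6 1 above wildtype. Rps19 and Rps14, whose human counterparts are tied to Diamond-Blackfan anaemia and to an anaemia of myelodysplasia, differed by 0.25 (SE 0.31) and 0.11 (SE 0.20).

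Paralogs, copies of a ribosomal protein gene that can replace it in some tissues, formed a separate case. Rpl3l, the copy used in heart and skeletal muscle, read 2.57, 2.40 and 2.67 in wildtype and 2.35, 2.24 and 3.09 in DeltaKlf6 (log2 difference 0.01, SE 0.27). Rpl39l, known from testis, read 2.85, 3.03 and 2.88 against 2.95, 2.57 and 3.29 (0.02, SE 0.24). All of these values lie under the array medians. Rpl3, the partner of Rpl3l, read 11.83, 11.89 and 11.82 in wildtype and 12.06, 11.86 and 11.53 in DeltaKlf6 (-0.03, SE 0.22). Rpl39, the partner of Rpl39l and the brightest of the 70, gave 12.85, 13.01 and 12.96 against 12.73, 12.84 and 13.02 (-0.08, SE 0.20), with the DeltaKlf6 livers in the reverse order. Rps29, the next, gave 12.92, 12.94 and 12.89 against 12.68, 12.92 and 12.95 (-0.07, SE 0.20). These probe set levels are not compared with each other as mRNA amounts. Rpl7, the partner of Rpl7l1, read 10.89, 11.27 and 10.97 against 11.62, 11.47 and 10.73 (0.23, SE 0.28). Rpl22l1 read 10.62, 11.47 and 11.14 in wildtype and 11.20, 11.30 and 10.79 in DeltaKlf6 (log2 difference 0.02, SE 0.28), beside -0.12 for Rpl22, and all 3 DeltaKlf6 values lay within the wildtype range. Rps27l, a p53-inducible copy of Rps27, read 11.52, 11.74 and 11.64 against 11.88, 11.84 and 11.70 (0.17, SE 0.20), higher on all 3 of its probe sets. Copies this alike, and the many processed pseudogenes of ribosomal protein genes, can share probes, so single values are uncertain. Of the 70 chosen probe sets, 27 are of the types (_s_at or _x_at) that can match transcripts of more than 1 gene.

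The deviations varied with the brightness of the probe set. For the 11 genes with a mean log2 value of 7 to 11 the mean deviations were 0.38, 0.36 and -0.23 in the libraries labelled DeltaKlf6 1, 2 and 3, and for the 34 genes of 11 to 12 they were 0.35, 0.35 and -0.22. For the 21 genes of 12 or more they stayed within 0.03 of 0 on each of these arrays. Single genes of this band lay on both sides of 0, between -0.28 and 0.27 in the library labelled DeltaKlf6 1, between -0.22 and 0.27 in DeltaKlf6 2 and between -0.23 and 0.15 in DeltaKlf6 3. In DeltaKlf6 1, Rps28 deviated by -0.28 (wildtype SD 0.01, n = 3), Rps21 by -0.24 and Rps6 by 0.27. The other genes of these bands had mean deviations of -0.02, 0.07 and -0.23 from 7 to 11 (3587 genes) and of 0.05, 0.05 and -0.04 from 11 to 12 (176 genes). From 7 to 11 the value in DeltaKlf6 3 equals that of the ribosomal protein genes to 2 decimals. That band is not matched in brightness, however, with a median level of 10.81 for the ribosomal protein genes and 8.20 for the others. From 11 to 12 these medians were 11.57 and 11.40. By group mean 31 of the 34 ribosomal protein genes of 11 to 12 were higher, with a median difference of 0.15, beside 87 of the 176 others. From 12 on 12 of 21 were higher, with a median of 0.02, beside 40 of 88 others. Across the 66 genes of mean 7 or more, brightness correlated with the deviation at Spearman's rho of -0.58, -0.59 and 0.54 in the libraries labelled DeltaKlf6 1, 2 and 3 (Pearson's r -0.42, -0.45 and 0.39). Over all 70 genes, the 4 dim ones included, rho was -0.36, -0.34 and 0.44, and r was 0.24, 0.31 and 0.11, so that the sign of r turned in the first 2. These genes share arrays and normalization, the correlations describe these arrays only, and brightness on an array is a property of the probes as well as of the mRNA.

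**Figure D4:**
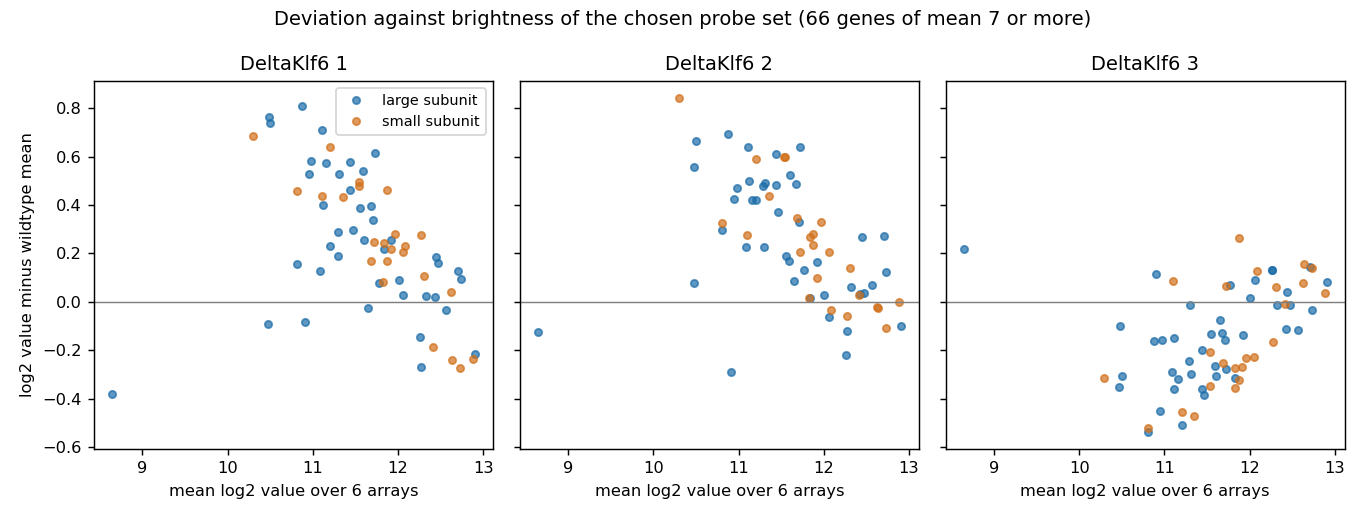
Deviation from the wildtype mean (log2, vertical axis) against the mean log2 value over 6 arrays (horizontal axis) for the 66 genes of mean 7 or more, 1 panel per DeltaKlf6 array, large subunit in blue and small subunit in orange. Below 12 most points lie above 0 in DeltaKlf6 1 and 2 and below 0 in DeltaKlf6 3; from 12 on they lie on both sides of 0, between -0.28 and 0.27.

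Probe sets of 1 gene could also differ, with the dimmer set following this pattern in some genes and not in others. For Rpl35 the brightest probe set deviated by -0.27, -0.12 and 0.13 in the libraries labelled DeltaKlf6 1, 2 and 3, and a dimmer one, of mean 10.60, by 0.63, 0.74 and -0.55. For Rpl10 the chosen probe set, of mean 12.43, deviated by 0.02, 0.03 and -0.11, and the other, of mean 10.82, by 0.84, 0.78 and -0.66. Rpl37a gave 0.19, 0.27 and 0.04 on the chosen probe set and 0.36, 0.68 and -0.41 on that of mean 11.86. Both of these Rpl10 and Rpl37a probe sets put DeltaKlf6 3 lowest of its group, and the Rpl35 pair put it highest on one and lowest on the other. The other Rpl35 probe sets, of means 12.19 and 11.95, deviated by 0.16, 0.11 and 0.16 and by 0.16, 0.02 and 0.11. The remaining, dim set of Rpl37a, of mean 5.23, deviated by 0.23, 0.63 and 0.28 and did not put DeltaKlf6 3 lowest. In other genes the dimmer set went the opposite way. For Rpl17 the chosen probe set, of mean 11.31, deviated by 0.53, 0.49 and -0.30, and that of mean 8.17 by -0.32, -0.43 and 0.11. For Rps10 the chosen one, of mean 11.20, gave 0.64, 0.59 and -0.45, and that of mean 10.66 gave -0.05, -0.25 and 0.03. For Rps6 the chosen one, of mean 12.27, gave 0.27, -0.06 and -0.17, and that of mean 9.36 gave -0.22, -0.61 and 0.05. The Rps6 sets were thus opposite in DeltaKlf6 1 and 3 only, and both lay below the wildtype mean in DeltaKlf6 2. Of the 34 genes with several probe sets, 15 had 1 sign of group difference on all of them and 19 had both signs. Some of these signs come from dim probe sets, since 25 of the 133 had a mean under 7. Among them are sets of Rpl11 (mean 3.13, difference -0.02) and Rpsa (mean 2.70, difference -0.03). The 8 genes lower in the libraries labelled DeltaKlf6 1 and 2 and higher in DeltaKlf6 3 were Rpl27, Rpl34, Rpl35, Rpl39, Rpl3l, Rpl7l1, Rps21 and Rps28, against 13.8% of all genes with that combination.

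The array order of the ribosomal protein genes matched that of the RNA control probe sets at its ends. The 5' actin control read 5.91, 6.36 and 6.57 in wildtype 1, 2 and 3 and 7.73, 7.77 and 5.69 in the libraries labelled DeltaKlf6 1, 2 and 3. As for the ribosomal protein mean, the libraries labelled DeltaKlf6 1 and 2 were the highest and DeltaKlf6 3 the lowest of the 6, and the same was true of the 5' Gapdh control. DeltaKlf6 3 stood apart as a whole array: its hybridization controls, which are added to each sample, averaged 11.02, beside 9.66 in both other DeltaKlf6 libraries and 9.92 to 10.13 in wildtype. Its upper quartile over all probe sets was 5.08, below the other 5 arrays, of which the highest was 5.63, and limma's array weight for it was 0.378, the lowest of the 6 (others 0.864 to 1.674). In wildtype, the 5' Gapdh control was highest in wildtype 2, where the ribosomal protein mean was highest too, but the 5' actin control was highest in wildtype 3. The lowest wildtype array was wildtype 1 for the ribosomal protein mean and 5' actin, and wildtype 3 for 5' Gapdh. The part of RNA or labelling quality in the ribosomal protein values was not tested.

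**Figure D5:**
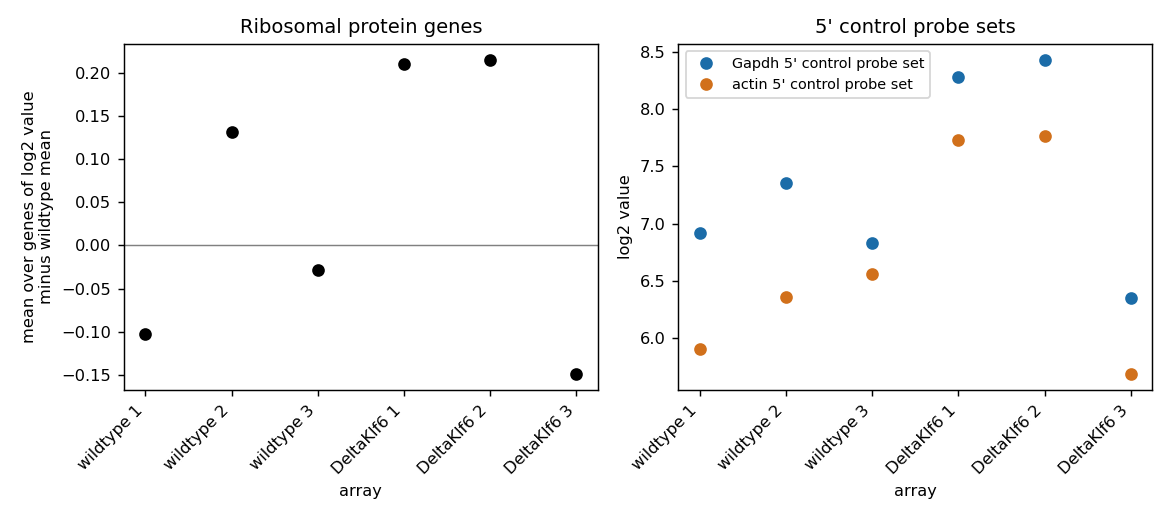
Left, mean over the 70 ribosomal protein genes of the log2 value minus the wildtype mean, per array; right, log2 values of the 5' Gapdh and 5' actin control probe sets on the same arrays. In both panels DeltaKlf6 1 and 2 are the highest points and DeltaKlf6 3 the lowest.

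Other genes of protein synthesis were compared by lists, and 0 genes of these lists passed an adjusted p of 0.05 by limma. Mitochondrial ribosomal proteins, which serve the separate ribosome of mitochondria, had 55 of 73 higher and 18 lower (median log2 difference 0.14). Their mean deviations were 0.16, 0.35 and -0.09 in the libraries labelled DeltaKlf6 1, 2 and 3 and -0.21, 0.13 and 0.08 in wildtype. Mrpl1 read 5.78, 6.15 and 6.38 in wildtype and 7.33, 7.03 and 6.30 in DeltaKlf6 (0.79, SE 0.31), and Mrpl46 7.72, 8.29 and 8.34 against 8.66, 8.65 and 8.53 (0.50, SE 0.24). Here too the library labelled DeltaKlf6 3 had the lowest mean of its group, though wildtype 1 lay lower still.

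Translation initiation factors had 12 of 20 higher (median 0.10), with mean deviations of 0.48, 0.18 and -0.31 in the libraries labelled DeltaKlf6 1, 2 and 3. The eIF3 subunits Eif3d and Eif3c differed by 0.47 (SE 0.31) and 0.47 (SE 0.32). The elongation factor list, which also holds the eEF2 kinase gene Eef2k, had 3 of 8 higher (median -0.01; deviations 0.05, 0.13 and -0.24). In it Eef2k differed by -0.56 (SE 0.36) and the factor gene Eef1g by 0.22 (SE 0.24). Of 8 other mRNAs known to carry a TOP motif 5 were higher (median 0.05; deviations 0.19, -0.16 and -0.15), with Nap1l1, a histone chaperone gene, at -0.52 (SE 0.23) and Naca at 0.20 (SE 0.22). The order of the DeltaKlf6 livers in this last list differed from that of the ribosomal proteins, since its mean in DeltaKlf6 2 was below wildtype. Fau, which encodes the ribosomal protein eS30 fused to a ubiquitin-like protein, read 11.73, 11.67 and 11.71 against 11.77, 11.72 and 11.34 (-0.09, SE 0.21).

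Upstream of the ribosomal proteins, Mtor, the kinase that drives translation of TOP mRNAs, read 8.72, 8.34 and 8.52 in wildtype and 7.68, 7.71 and 7.99 in DeltaKlf6 (log2 difference -0.73, SE 0.21, unadjusted p = 0.00929 and adjusted p = 0.992 by limma). Every DeltaKlf6 value lay below every wildtype value, as for 5.91% of all genes. Of the 13 measured genes of mTOR signalling and TOP control 3 were higher and 10 lower (median -0.13; deviations 0.06, -0.21 and -0.38), with Tsc1, an inhibitor of the pathway, at -0.44 (SE 0.29). Chaperones and importers of ribosomal proteins had 7 of 12 higher (median 0.04; deviations 0.31, 0.23 and -0.64), with Heatr3, which carries Rpl5 towards assembly, at -0.57 (SE 0.33) and the importin gene Kpnb1 at -0.31 (SE 0.22). Of 8 genes around p53 and Myc 6 were higher (median 0.22; deviations 0.66, 0.03 and -0.27), with Mdm4, a p53 inhibitor, at -0.52 (SE 0.29) and Cdkn2a, which reads 2.26 to 3.18, at 0.33 (SE 0.26).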

How the data were processed

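The deposited table holds 45141 probe sets on 6 arrays as log2 values, made by the authors with RMA (Expression Console 1.2.1, as the submitters' processing notes state). The log2 scale was inferred from the highest value, 13.9. No source used here names the authors' genome build or probe annotation. Brightness bands were set after seeing the data. The platform annotation names 1 gene for 28898 probe sets, several for 551 and none here for 15692; RefSeq changed 0 symbols. Each gene was represented by its probe set of highest mean. The groups were tested with limma 3.58.1 (R 4.3.3, statmod 1.5.0; lmFit, eBayes, two-sided, Benjamini-Hochberg adjustment over 17097 genes). The 3 arrays per group limit the precision. A deviation is a value minus the gene's wildtype mean. No summary over genes was tested. The calculation was tested on simulated data. Full values are given for the 6 genes per direction of smallest p, stalk, MDM2-binding and paralog genes, Rpsa, Rps6 and the 3 highest and lowest means; for other lists, the 2 genes of smallest p. Further genes named (non-overlapping groups, probe set examples, Rps14 and Rps19) were chosen after their values were seen. The members and lists were chosen with earlier results of these data known. Same-numbered animals are not stated to be paired, and their deviations correlated at -0.01, 0.26 and 0.08.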

Additional observations from a re-analysis of the deposited data

How the results depend on the processing

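No gene, of either subunit or of all 17097, passed the threshold under any of the 16 alternatives of the fit; for the 12 genes of smallest p the adjusted p ranged from 0.445 to 1.0. The median log2 difference of the 70 genes stayed above 0, at 0.06 with every probe set tested, 0.07 quantile-normalized again, 0.08 median-centred and 0.17 with array weights, and at 0.03 to 0.22 with each array left out. Large minus small, 0.04 over the 70 genes, was 0.0034 with every probe set tested, 0.0045 with dim genes left out, 0.0648 without shared probe set types, and 0.02 to 0.06 with each array left out. In the main fit 1 of 70 ribosomal protein genes had an unadjusted p under 0.05 by limma (1.43%, all genes 3.69%). With every probe set tested it was 4 of 133 (3.01%, all probe sets 3.69%), and with dim genes left out 0 of 67 (all genes kept 3.87%). Without the 4 genes under 7 (chosen after seeing the data) it was 0 in the main fit, against 3.69% of all genes. With each array left out there were 0 to 10: 0 without wildtype 3 (all genes 2.22%) and 10 without DeltaKlf6 3 (14.3%, all genes 9.04%). Rpl13 turned to -0.0626 with the mean of its probe sets, and Rpl35 to 0.11, and to 0.28 without shared probe set types. With each array left out Rpl7l1 ranged from -0.25 to 0.0475, Rpl35 from -0.19 to 0.0054 and Rps23 from -0.17 to 0.0476. Other genes kept their sign but moved by over 1.5 times: Rps9 ranged from 0.19 (without DeltaKlf6 2) to 0.76, Rpl32 from 0.27 to 0.75, Rpl29 from 0.18 to 0.70, Rpl13 from 0.25 to 0.67 and Rpl12 from 0.23 to 0.66, the other lowest values without DeltaKlf6 1 and the highest without DeltaKlf6 3. Rpl14 ranged from -0.62 (without wildtype 1) to -0.13 (without wildtype 3) and Rpl22 from -0.22 (without DeltaKlf6 2) to -0.0017 (without wildtype 2). The cause of these changes was not tested. With the replicate number as a block, which the deviations do not bear out as a pairing, 0 ribosomal protein genes passed. By limma 1 then had an unadjusted p under 0.05 (1.43%, all genes 4.11%), and no other call changed. Rps15a, Rpl3l and Rpl39l read below the array medians on average, and their detection was not assessed.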
